A study of Mus musculus with 6 samples.

Results

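The genes examined here are 10 that sense, edit or degrade nucleic acids inside the cell: the RNA sensor genes Ddx58, Ifih1 and Dhx58, their adaptor Mavs, the DNA pathway adaptor Tmem173, the sensor Zbp1, the kinase Tbk1, the editing enzyme Adar, and Samhd1 and Trex1, which limit the nucleic acids that sensors meet. They were chosen by symbol for their role, with earlier results of these data known. All 10 stand among the 31017 genes of the count table. RNA sequencing had been performed on mouse Th17 cells differentiated in culture, helper T cells named for the interleukin 17 that they secrete. There were 3 control libraries, whose genotype is labelled WT, and 3 libraries labelled KO, which lack normal RTF1, a nuclear protein that works with RNA polymerase II and promotes ubiquitination of histone H2B. The study asked how loss of RTF1 changes expression in these cells. The strain, the allele, the way it was deleted, the age of the animals and the culture conditions are not given in the sources used here, nor is it said whether the 3 libraries of a group came from separate animals. If they did not, the p-values measure only the spread between these libraries.

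Cells recognise foreign or misplaced nucleic acids through receptors in the cytosol. RIG-I (Ddx58) and MDA5 (Ifih1) bind double-stranded RNA and pass the signal to MAVS on mitochondria, while the DNA sensor cGAS makes a cyclic dinucleotide that activates STING (Tmem173) on the endoplasmic reticulum. Both routes meet at the kinase TBK1, which phosphorylates IRF3, and the type I interferons that follow induce many of the same sensors in turn. Nucleases and editing enzymes such as TREX1, SAMHD1 and ADAR1 keep a cell's own nucleic acids from triggering these receptors.

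Promoters were searched for 2 short sequences bound by interferon-activated factors, on both strands. One is the core of the interferon-stimulated response element, here GAAA, any 2 bases, then GAAA again, and the other is the palindromic STAT site TTCNNNGAA. Matches of the 2 can overlap, since each contains GAA. RefSeq windows from 250 bases before to 50 bases after a gene's start (GRCm38.p6) were matched by symbol for 7 of the 10 genes, with 10 windows between them, and Dhx58, Tmem173 and Zbp1 had no entry. This form of the response element core occurred in the windows of Ddx58 and Ifih1, and among all genes with a window 3.99% hold it. TTCNNNGAA occurred in the window of Samhd1 and in 1 of the 3 windows of Adar, and 9.55% of all genes hold it. Neither sequence was found in the windows of Mavs, Tbk1 and Trex1. The 4 matches were found by these letters alone, and no set of known interferon-responsive promoters was examined. Cores with another number of bases between the GAAA repeats were not searched. The run printed for Adar holds GAAA, 1 base, then GAAA, beginning inside its TTCNNNGAA match. It is not counted here, so the search does not show that Adar lacks a response element. Each run of bases around a match has 30 bases, reads along the strand of the gene, and has the match in capitals. The match in Ddx58 lies on the opposite strand, so its capitals are the reverse complement of that core. A match describes the letters and does not show that a factor binds there.
Ddx58 (chr4:40239804-40239833, minus strand, match from base 3 of the transcript): cctgaggcagTTTCGATTTCctatggccag
Ifih1 (chr2:62646206-62646235, minus strand, match from base 33): gagaagagaatcGAAACAGAAAccgatctg
Samhd1 (chr2:157135312-157135341, minus strand, match 235 bases before the start): acaccaccctTTCGGAGAAacacaagggcg
Adar (chr3:89730730-89730759, plus strand, match from base 23 counted from the third annotated start): gggaagccttTTCAAGGAAacgaaagtgaa

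Total counts ranged from 16489813 to 51271226 per library. Mitochondrial genes took 0.642% to 1.16% of counts in control and 1.11% to 1.44% in KO. Rtf1 itself, which checks the labels, was at 94.0, 91.2 and 88.3 CPM (counts-per-million, scaled with TMM factors) in control replicates 1, 2 and 3 and at 45.3, 30.4 and 26.2 in KO replicates 1, 2 and 3. Replicate 3 of each group is the library with Y-linked transcripts (11376 and 5147 counts over 4 genes, against 1 to 3 in the other libraries). Replicate numbers below always run 1, 2, 3 within a group.

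Of the 10 genes, 9 had enough counts to be tested, and 6 of these were higher in KO: Zbp1, Ifih1, Ddx58, Tmem173, Adar and Tbk1, with log2 fold changes from 0.68 to 1.78. Across all 14268 tested genes 46.1% were called, 23.2% higher and 22.9% lower. The count of members called lower was 0 by edgeR's quasi-likelihood test and by DESeq2, and it was also 0 at an unadjusted p under 0.05. For the same 6 genes every KO library lay above every control library, which was so for 29.9% of all tested genes (the reverse held for 28% of all and for 0 members). It follows that KO was higher in each pair of equally numbered libraries, so the pairs add no support. The groups overlapped for Dhx58, Mavs and Samhd1. The median log2 fold change of the 9 tested genes was 0.83, beside 0.013 over all tested genes. Since the 10 genes were chosen with earlier results of these data known, these comparisons with all genes only describe them. The RNA comes from whole cultures, so a change in the share of cells that express a gene and a change in RNA per cell cannot be told apart.

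**Figure D1:**
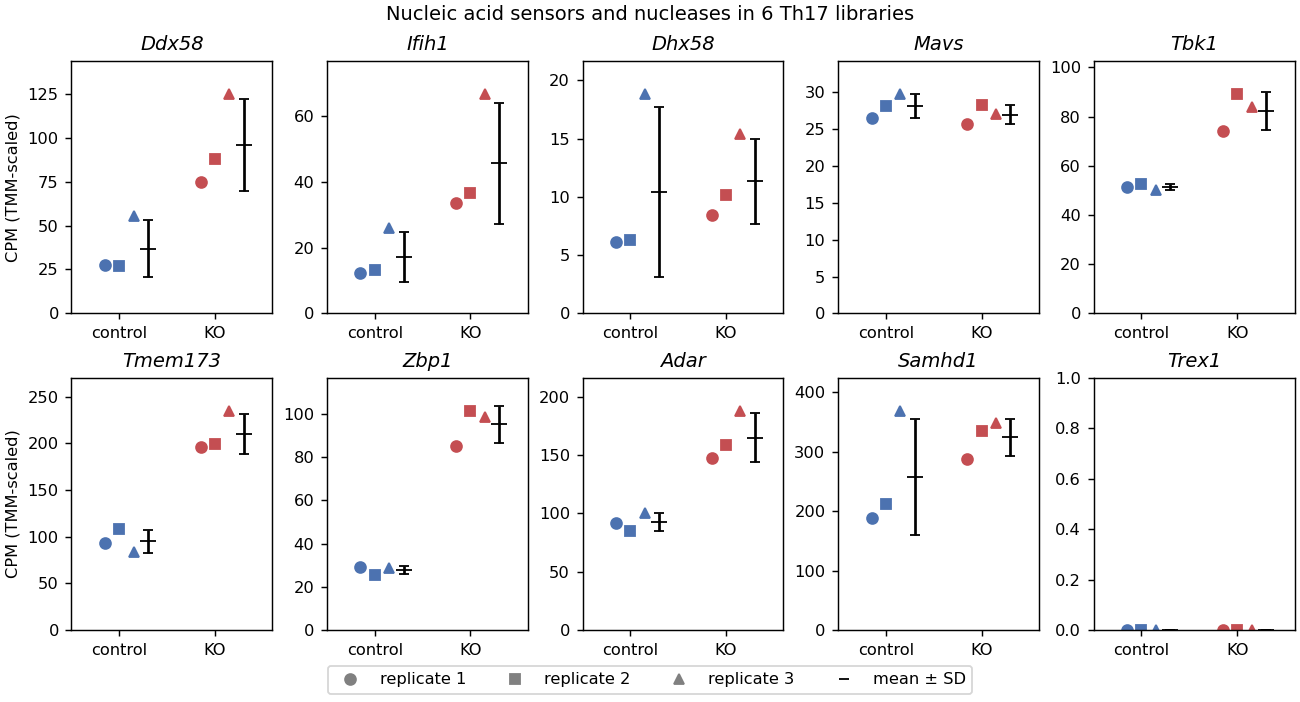
Level of each of the 10 genes in CPM (vertical axis, TMM-scaled, starting at 0) in 3 control libraries (blue) and 3 KO libraries (red), with symbols for the replicate number and a bar for the mean ± SD. Red points lie above all blue points for Ddx58, Ifih1, Tbk1, Tmem173, Zbp1 and Adar, overlap with them for Dhx58, Mavs and Samhd1, and all points of Trex1 are at 0.

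Among the RNA sensors, Ddx58 and Ifih1 rose together and Dhx58 did not pass the test. Ddx58 encodes RIG-I, a helicase that recognises short double-stranded RNA with a phosphorylated end. It held 27.8, 26.9 and 55.6 CPM in control and 74.6, 87.6 and 125 CPM in KO. Control replicate 3 lay above the other controls, and no control library reached the lowest KO library. Its mean rose from 36.8 ± 16.3 to 95.7 ± 26.0 CPM (SD, n = 3), by 1.37 on the log2 scale (SE 0.300, 95% interval 0.69 to 2.06, edgeR adjusted p = 0.00617). Ifih1 encodes MDA5, which assembles along longer double-stranded RNA. It held 12.4, 13.1 and 26.0 CPM in control and 33.5, 36.5 and 66.7 CPM in KO. Replicate 3 was the highest library of each group for Ifih1, as for Ddx58, and the groups did not overlap. Ifih1 rose by 1.40 on the log2 scale (SE 0.346, 95% interval 0.61 to 2.18, edgeR adjusted p = 0.0107). Both calls held under each of the 14 alternative settings. That of Ifih1 came close to the threshold, with an edgeR adjusted p of 0.0484 without control replicate 2, where Ddx58 was at 0.0278.

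Dhx58 encodes LGP2, a helicase of the same family that lacks the signalling domains and tunes the other receptors. It held 6.14, 6.29 and 18.8 CPM in control and 8.43, 10.2 and 15.4 CPM in KO. Control replicate 3 was the highest of all 6 libraries, while control replicates 1 and 2 lay below every KO library. The log2 fold change was 0.10 with an interval from −0.89 to 1.10 (SE 0.438, edgeR adjusted p = 0.862) that spans falls and rises. This value rests on control replicate 3. Without that library the log2 fold change was 0.80 and passed the test (edgeR adjusted p = 0.0328), whereas without control replicate 1, control replicate 2 or KO replicate 3 it turned negative (−0.20, −0.18 and −0.17).

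Ratios of counts within a library do not depend on how libraries are scaled, and 3 such ratios, chosen after the levels had been seen, were compared between the groups. Ifih1 gave 0.446, 0.485 and 0.468 counts per count of Ddx58 in control and 0.449, 0.417 and 0.535 in KO. The KO ratios reached beyond the control ratios on both sides, and the means were 0.466 ± 0.0194 and 0.467 ± 0.0608 (SD, n = 3; exact permutation test, two-sided, p = 1, which does not show that the groups are alike). Dhx58 gave 0.221, 0.234 and 0.339 counts per count of Ddx58 in control and 0.113, 0.116 and 0.123 in KO. The KO ratio was 44.4% of the control ratio, and the ranges did not overlap. Leaving out control replicate 3 gave 51.7%. Against Ifih1 the ratio of Dhx58 was likewise lower in KO, 0.254 ± 0.0239 against 0.567 ± 0.136 (SD, n = 3). For each of these ratios the exact permutation test, two-sided, gave p = 0.1, the smallest value that 3 libraries against 3 allow, and 0.15 after Benjamini-Hochberg adjustment over the 3 ratios. No difference between groups of this size can pass 0.05 in that test.

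**Figure D2:**
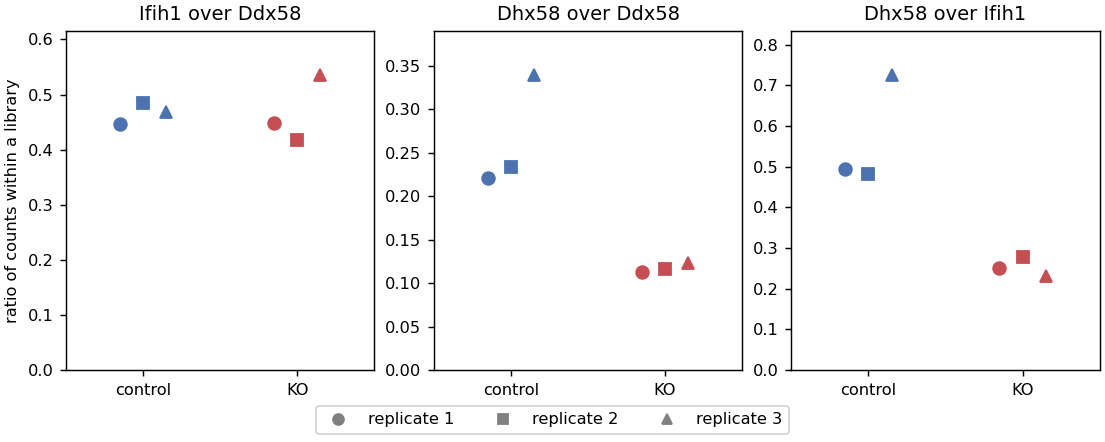
Ratio of raw counts of 2 RNA sensor genes within each library (vertical axis, starting at 0), for control (blue) and KO (red), with symbols for the replicate number. Ifih1 over Ddx58 overlaps between the groups, whereas Dhx58 over Ddx58 runs from 0.221 to 0.339 in control and from 0.113 to 0.123 in KO.

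The adaptor of the RNA sensors did not follow them. Mavs, which relays their signal from the mitochondrial surface, held 26.4, 28.2 and 29.8 CPM in control and 25.7, 28.3 and 27.0 CPM in KO. The libraries of both groups lay within the same narrow range. Its log2 fold change was −0.062 (SE 0.123, edgeR adjusted p = 0.706), and the direction flipped, to 0.027, with library size as the only scaling. As a fold, the 95% interval of Mavs ran from 0.79 to 1.16. Tbk1, the kinase on which the MAVS and STING routes converge, held 51.5, 52.7 and 50.3 CPM in control and 74.1, 89.2 and 83.7 CPM in KO. The control libraries were close together and every KO library was above them. Tbk1 rose by 0.68 on the log2 scale (SE 0.111, 95% interval 0.42 to 0.93, edgeR adjusted p = 0.00178), the smallest change among the 6 called genes.

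On the DNA side, Tmem173 and Zbp1 were higher in KO. Tmem173 encodes STING, the adaptor that answers to cGAS. It held 93.7, 108 and 83.9 CPM in control and 196, 199 and 235 CPM in KO, with no overlap. Here control replicate 3 was the lowest control library, unlike for Ddx58 and Ifih1. Tmem173 rose by 1.14 on the log2 scale (SE 0.134, 95% interval 0.84 to 1.45, edgeR adjusted p = 0.000451). Zbp1 encodes a receptor for the left-handed Z form of nucleic acids that can start necroptosis through RIPK3. It held 29.0, 25.6 and 28.6 CPM in control and 85.3, 101.5 and 98.8 CPM in KO. Libraries within a group were close to each other and the groups lay far apart. Its rise, 3.44-fold (95% interval 2.84 to 4.16, edgeR adjusted p = 6.78e-05), was the largest of the 9 tested genes, and its log2 fold change stayed between 1.71 and 1.87 under all 14 alternatives.

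Of the enzymes that act on nucleic acids, Adar rose and Samhd1 did not pass the test. Adar encodes ADAR1, which converts adenosine to inosine in double-stranded RNA and so keeps the cell's own transcripts from MDA5. It held 91.4, 85.2 and 100.5 CPM in control and 147.5, 158.5 and 187.9 CPM in KO, without overlap. Adar rose by 0.83 on the log2 scale (SE 0.128, 95% interval 0.54 to 1.12, edgeR adjusted p = 0.00132). Of the exonic bases of Adar, 16.8% overlap those of Chrnb2 on the opposite strand, and with the strand setting unknown these reads cannot be assigned with certainty. Samhd1 encodes an enzyme that breaks down deoxynucleotides and so limits DNA synthesis from RNA. It held 189, 213 and 369 CPM in control and 288, 335.5 and 348 CPM in KO. Control replicates 1 and 2 lay below every KO library and control replicate 3 above every one. The log2 fold change was 0.33 (SE 0.235, 95% interval −0.20 to 0.87, edgeR adjusted p = 0.273). It passed the test with the replicate number as a block (0.39, edgeR adjusted p = 0.0497) and without control replicate 3 (0.63, edgeR adjusted p = 0.00718), and it shrank to 0.099 without control replicate 1 and to 0.20 without control replicate 2.

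Trex1, a DNA exonuclease of the cytosol, had 0 counts in all 6 libraries. A count of 0 allows up to 3 counts, or 0.0585 to 0.182 CPM of the library total, which limits only reads assigned to the gene. In GENCODE release M21 (GRCm38) Trex1 lies at chr9:109057933-109059734 on the minus strand, and 100% of its 1147 exonic bases are also exonic in Atrip on the same strand. Stretches of 50 bases that Atrip or another gene also contains made up 95.8% of Trex1. Of 111 protein-coding genes in the table whose exons lie wholly inside those of another gene on the same strand, 89 (80.2%) had 0 counts in all 6 libraries, as against 27.5% of the 15296 genes without any overlap. Expression of Trex1 can therefore not be read from these counts. Atrip, named here because it covers Trex1, held 26.3, 24.7 and 25.7 CPM in control and 31.4, 31.5 and 34.97 CPM in KO. It was higher by 0.35 (edgeR adjusted p = 0.0402), but 9 of the 14 alternatives did not call it, among them all that drop a library (adjusted p from 0.0733 to 0.177), and reads of the 2 genes cannot be separated in it. Each of the other 9 genes has at most 16.8% of its exonic bases in common with another gene.

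**Figure D3:**
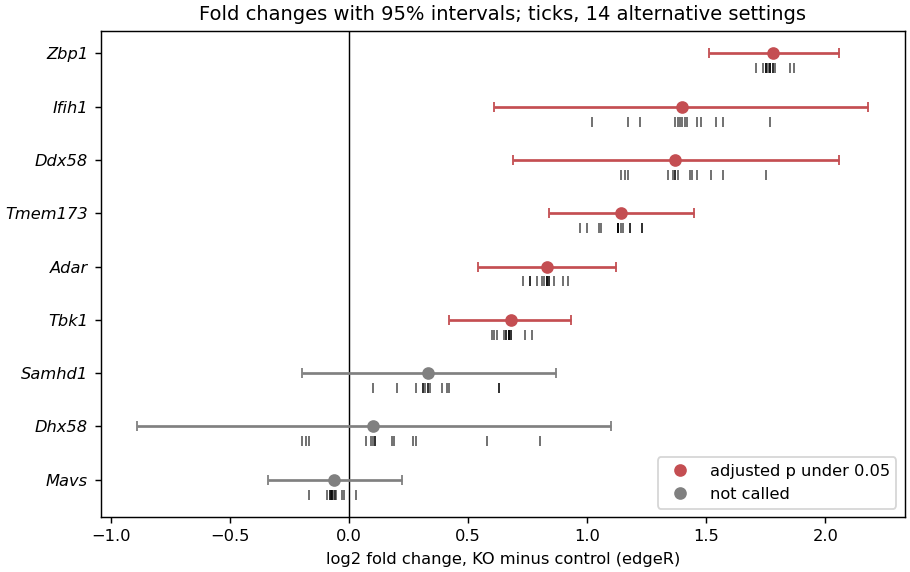
Log2 fold change of KO minus control (horizontal axis) for the 9 tested genes, with 95% intervals from edgeR as bars, red for an adjusted p under 0.05 and grey otherwise, and black ticks under each bar for 14 alternative settings. Zbp1 at 1.78 to Tbk1 at 0.68 stand clear of 0, whereas the ticks of Dhx58 reach from −0.20 to 0.80.

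Control replicate 3 held 2.03, 2.04 and 3.03 times the mean of control replicates 1 and 2 for Ddx58, Ifih1 and Dhx58, and 1.835 times for Samhd1. For Mavs, Tmem173, Zbp1, Adar and Tbk1 the same ratio lay between 0.831 and 1.14. In KO the corresponding ratio of replicate 3 was 1.54, 1.90 and 1.66 for Ddx58, Ifih1 and Dhx58 and 1.001 to 1.23 for the other 6 genes. Among the control libraries Irf7, an interferon-induced transcription factor, was also highest in replicate 3 (3.06 times). Usp18, another interferon-induced gene, was at 1.33 times, but its control replicate 1 (16.4 CPM) was as high as control replicate 3 (16.3 CPM). These ratios describe single libraries and carry no test. Without control replicate 3 alone, 8 of the 9 genes were called higher, all but Mavs, where 23.3% of all genes were called higher. With both replicates 3 left out, 2 libraries against 2, 7 of the 9 genes were called higher, the 6 above and Samhd1 (0.63, edgeR adjusted p = 0.00619), where 22.7% of all genes were called higher, and Dhx58 was at 0.58 (edgeR adjusted p = 0.0676).

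Per length of exon, which allows genes to be compared with each other, Tmem173 and Samhd1 were the most abundant of the tested genes in control and Ifih1 the least. Tmem173 was at 34.8 ± 4.47 and Samhd1 at 28.1 ± 10.7 CPM per kilobase (SD, n = 3), levels that overlapped across libraries. Tbk1 followed at 13.2 ± 0.306 and Adar at 11.4 ± 0.944, each apart from its neighbours in the order. Mavs (8.41), Zbp1 (7.85), Ddx58 (5.22), Dhx58 (3.19) and Ifih1 (2.10) came next, and in this stretch each overlapped with the next. In KO the order changed. Tmem173 (76.7 ± 7.87) stood apart from Samhd1 (35.4 ± 3.47), and Zbp1 moved from the sixth place to the third (27.0 ± 2.46 CPM per kilobase), above Tbk1 (21.1 ± 1.96) and Adar (20.3 ± 2.57), which overlapped. Ddx58 (13.6 ± 3.69) came to lie above Mavs (8.06 ± 0.387), and Ifih1 (5.58 ± 2.25) above Dhx58 (3.46 ± 1.11), though Ifih1 overlapped with both Mavs and Dhx58. Lengths are unions of all annotated exons, so a gene with long rarely used exons is set too low.

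**Figure D4:**
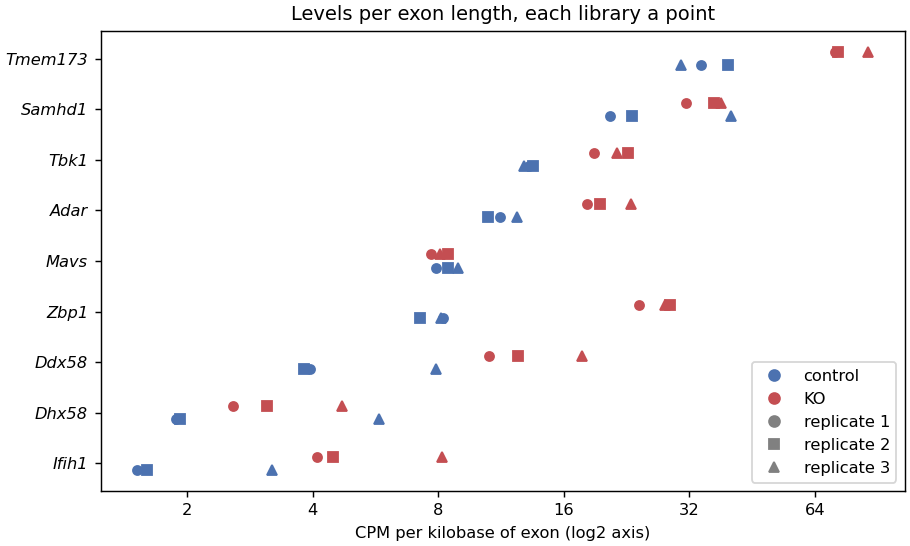
Level per kilobase of exon (horizontal log2 axis, CPM per kilobase) of the 9 tested genes, each point a library, blue for control and red for KO, with symbols for the replicate number. Zbp1 shifts from near 8 to near 27 CPM per kilobase, while the points of Mavs coincide between the groups.

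The genes around these 10 in the same pathways were taken from 6 lists, 105 genes in all, of which 94 were tested. In KO 35 were called higher and 16 lower, 37.2% and 17.0% of the tested ones, beside 23.2% and 22.9% of all genes. The lists were written with earlier results of these data known, so these shares only describe them. In fits without control replicate 1, KO replicate 2 or KO replicate 3, which the closing section compares by list, 15.7%, 16% and 17% of all genes were called higher and 19.1%, 15.1% and 16.9% lower. Lower calls made up 20.6% of all genes without control replicate 2 and 19.6% with library size as sole scaling.

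Among partners of the RNA sensors and other RNA-binding effectors (18 genes, all tested) 7 rose and 3 fell, with a median log2 fold change of 0.34. These are shares of 38.9% and 16.7%, beside 23.2% and 22.9% of all genes. Trim25, a ubiquitin ligase that activates RIG-I, rose by 0.97 (119.5 ± 16.01 to 234.9 ± 54.05 CPM, SD, n = 3; edgeR adjusted p = 0.00274). Ddx60, a helicase induced by interferon, rose from 0.876 ± 0.419 to 11.7 ± 3.81 CPM (3.78, edgeR adjusted p = 0.000424). Eif2ak2, the kinase PKR that halts translation on double-stranded RNA, rose by 0.90 (edgeR adjusted p = 0.0221), and 3 of 6 fits with a library dropped did not call it. Prkra, the protein activator of PKR, fell from 12.8 ± 3.93 to 3.77 ± 0.349 CPM (−1.77, edgeR adjusted p = 0.000970), and the helicase gene Dhx33 fell by 0.62 (edgeR adjusted p = 0.0352), though 4 of 6 fits with a library dropped missed it and its groups overlapped. Zc3hav1, an antiviral zinc finger protein that recruits RNA decay, was at 0.31 and not called (edgeR adjusted p = 0.0677), although the fit with the replicate block gave an adjusted p of 0.0334. Of the endosomal RNA receptors, Tlr3 had 0 counts in each control library and 16, 25 and 37 in KO, at least 10-fold higher when 3 counts are set for each control library. Tlr7, named after its values were seen, rose from 1.01 ± 0.379 to 7.91 ± 2.06 CPM (3.02, edgeR adjusted p = 0.000473).

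DNA sensors and partners of STING moved both ways (17 genes, 6 higher and 6 lower, median log2 fold change 0.080). Each direction took 35.3% of the list, where 23.2% of all genes were called higher and 22.9% lower. Mb21d1 encodes cGAS, the sensor upstream of STING. It held 12.1, 11.02 and 12.4 CPM in control and 5.47, 5.31 and 4.98 CPM in KO. Every KO library was thus below the lowest control library, the reverse of Tmem173. Mb21d1 had a log2 fold change of −1.17 (SE 0.176, 95% interval −1.57 to −0.77, edgeR adjusted p = 0.00121), and the call held under each of the 14 alternatives. Banf1, which binds chromatin DNA and shields it from cGAS, fell as well (−1.18, edgeR adjusted p = 0.00329), but 28.6% of its exonic bases overlap Eif1ad. Trim56, a ubiquitin ligase that acts in STING signalling, rose by 0.98 (edgeR adjusted p = 0.00492), and Ifi35 by 1.93 (edgeR adjusted p = 8.93e-05). Unc93b1, which carries nucleic acid receptors to endosomes, rose by 1.32 (edgeR adjusted p = 0.045), though 4 of 6 fits with a library dropped missed it and its groups overlapped. Aim2, a DNA sensor that forms inflammasomes, was at 0.37 and not called (edgeR adjusted p = 0.0595), although the fit with the replicate block gave an adjusted p of 0.0289.

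The nucleases and turnover enzymes were divided too (18 tested genes, 4 higher and 5 lower, median log2 fold change −0.22), in shares of 22.2% and 27.8% that lie near the 23.2% and 22.9% of all genes. Of RNase H2, which removes RNA from hybrids with DNA, the catalytic subunit gene Rnaseh2a fell from 46.6 ± 5.65 to 26.1 ± 0.605 CPM (−0.84, edgeR adjusted p = 0.00140) and Rnaseh2b fell by 0.88 (edgeR adjusted p = 0.00985). Rnaseh2c was at −0.33 and not called (edgeR adjusted p = 0.316), but was called without control replicate 3 (−0.63, adjusted p = 0.0243). Enpp1, which hydrolyses the cyclic dinucleotide of cGAS outside cells, fell by 1.53 (edgeR adjusted p = 0.00404). Pnpt1, a mitochondrial RNA exonuclease, fell by 0.36 (edgeR adjusted p = 0.0371) but missed the threshold in 4 of 6 fits with a library dropped, and the cytidine deaminase gene Apobec3 was at −0.26 and not called (edgeR adjusted p = 0.0696). Rnaset2a was higher (2.36, edgeR adjusted p = 0.00260) but uncertain, since other genes, mainly Rnaset2b, contain 78.9% of its stretches of 50 bases.

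Downstream of the adaptors (16 genes, median log2 fold change 0.40), 6 were called higher and 0 lower, by edgeR's quasi-likelihood test and by DESeq2 (0 were lower at an unadjusted p under 0.05). Higher calls made up 37.5% of this list, where 23.2% of all genes were called higher and 22.9% lower. The 2 largest increases were those of interferon regulatory factors. Irf1 rose from 34.5 ± 6.28 to 197 ± 37.4 CPM (2.51, edgeR adjusted p = 7.86e-05) and Irf7 from 6.50 ± 4.58 to 26.7 ± 7.49 CPM (2.01, edgeR adjusted p = 0.00567). Without control replicate 3 the value for Irf7 was 2.72. Irf3, the factor that TBK1 phosphorylates, was at 0.26 with an interval from −0.08 to 0.60 (edgeR adjusted p = 0.193). Ikbke, the kinase related to TBK1, was at 0.14 (edgeR adjusted p = 0.640) and reversed to −0.094 without control replicate 2. Traf3, which links MAVS to these kinases, was at −0.20 (edgeR adjusted p = 0.228).

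Most of the interferon genes examined were scarcely counted in either group. Further Ifna genes, among them Ifna11 and Ifna15, were not examined. Ifnb1 had 0, 4 and 8 counts in control and 2, 0 and 0 in KO. Over 9 interferon genes the control libraries together had 20 counts and the KO libraries 3. These genes are Ifnb1, Ifna1, Ifna2, Ifna4, Ifna5, Ifna6, Ifne, Ifnl2 and Ifnl3, and they were too low to test. Both totals are raw and not scaled for library size, and 8 counts of Ifnb1 and 4 of Ifna4 came from control replicate 3. Ifna1, Ifna6, Ifne and Ifnl3 had no count in any library. Other genes contain 67.4%, 52.2% and 55.9% of the stretches of 50 bases of Ifna1, Ifna5 and Ifna6. For Ifnl2 and Ifnl3 the shares are 31.7% and 38.8%. Reads from such stretches may not have been assigned, so low counts of these genes do not show that they are silent. The 9 genes above leave out the 2 interferon genes of the list with enough counts to test. Ifnk, of the type I family, had 24, 19 and 28 counts in control and 54, 43 and 20 in KO (log2 fold change 0.84, edgeR adjusted p = 0.223, not called). Ifng, the type II interferon, had 1, 20 and 16 counts in control and 18, 8 and 13 in KO (0.66, edgeR adjusted p = 0.422, not called). Its exonic bases overlap those of Gm49751 on the same strand by 25.95%, and reads from there may not have been assigned. Of the 23 genes in the list of interferons, receptors and STATs, 14 were tested, 9 rose and 1 fell, with a median log2 fold change of 0.70. As shares of the tested genes these are 64.3% and 7.14%, beside 23.2% and 22.9% of all genes. The receptor gene Ifnar1 rose from 74.9 ± 4.30 to 185 ± 20.3 CPM (1.30, edgeR adjusted p = 0.000183), and Ifnar2 rose by 0.41 (edgeR adjusted p = 0.0319) but missed the threshold in 5 of 6 fits with a library dropped. Ifngr1, of the interferon gamma receptor, rose by 1.84 (edgeR adjusted p = 0.000616). Stat2, a transcription factor activated by the type I receptor, rose by 1.29 (edgeR adjusted p = 0.00223), and Irf9, its partner, by 0.48 (edgeR adjusted p = 0.0322), which missed the threshold in 4 of 6 fits with a library dropped. Usp18, which damps signalling at the type I receptor, rose from 13.7 ± 4.71 to 49.2 ± 15.1 CPM (1.86, edgeR adjusted p = 0.00167). Jak2 fell by 0.44 (edgeR adjusted p = 0.0168) and missed the threshold in 3 of 6 fits with a library dropped.

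Among the necroptosis partners of ZBP1, Ripk1 rose, and Ripk3 and Mlkl did not pass the test. Ripk3, the kinase that ZBP1 engages, was at −0.25 (interval −0.54 to 0.04, edgeR adjusted p = 0.142), and Mlkl, which ruptures the membrane, was at −0.061 (interval −0.60 to 0.48, edgeR adjusted p = 0.851) and flipped sign with library size as the only scaling. Ripk1 rose by 1.25 (edgeR adjusted p = 0.000369). Casp1, the inflammasome protease, rose from 6.62 ± 1.81 to 33.0 ± 5.17 CPM (2.30, edgeR adjusted p = 0.000202), and Pycard, its adaptor, fell by 0.59 (edgeR adjusted p = 0.00464). Of the 11 genes of this list 3 were called higher and 1 lower (median log2 fold change 0.43). The share called higher, 27.3%, lies near the 23.2% of all genes, and 9.09% were called lower, beside 22.9%. With the replicate block 6 were called higher, where 27% of all genes were.

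**Figure D5:**
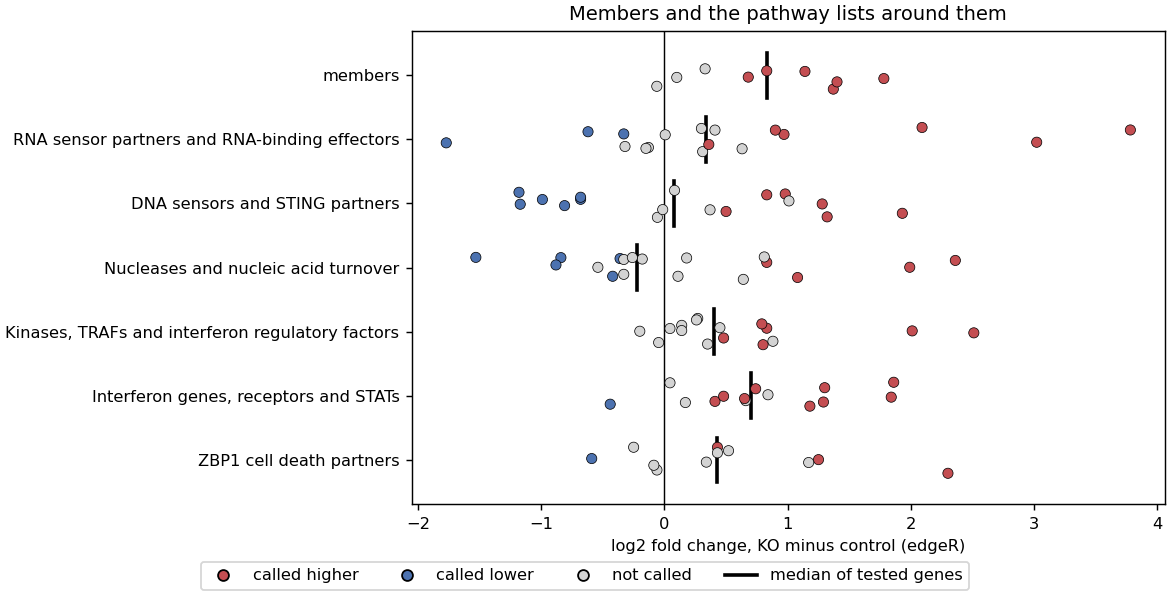
Log2 fold change of KO minus control (horizontal axis) for the tested genes among the 10 (top row, members) and in the 6 pathway lists, each point a gene, red for called higher, blue for called lower and grey for not called, with a black bar at the median of each list. Tlr3 is left out because its control libraries are at 0. The members have no blue point, whereas the DNA sensor list holds 6 red and 6 blue points.

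Markers of other cells were checked because myeloid and dendritic cells express many of these sensors. T cell markers (Cd3e, Cd3d, Cd3g, Cd4, Trac, Lck and Cd28) summed to 1985 to 2496 CPM in control and 1736 to 2176 in KO, with 2 of 7 called higher and 2 lower. Of the Th17 markers, Il17a was at a mean of 292 CPM in control and 92.8 in KO (edgeR adjusted p = 0.0125) and Il17f at 1231 and 507 (edgeR adjusted p = 0.0144). Il23r and Ccr6 were called lower too, and Rora was not called (edgeR adjusted p = 0.0515). The 10 myeloid markers summed to 1.28 to 1.57 CPM in control and 2.62 to 4.404 in KO, so they were higher in every KO library, with Csf1r called higher among 3 tested. The other two were not called, Cd14 at 0.302 CPM in control and 0.821 in KO and Fcgr3 at 0.545 and 0.212. Itgam, Adgre1, Mpo, S100a8 and S100a9 had at most 5 counts in any library, and Lyz2 at most 4 in control and 46 in KO. The 8 dendritic markers summed to 56.6 to 67.4 CPM in control and 70.2 to 86.4 in KO, mostly from Bst2 and Tcf4, and 2 of 4 tested were called higher, Xcr1 and Tcf4. Clec9a and Siglech, which define dendritic subsets, had at most 1 count. B cell markers summed to 7.68 to 18.2 and 3.71 to 15.3 CPM, CD8 and NK markers to 7.60 to 11.3 and 7.16 to 12.8 with Klrb1c and Ncr1 at 0 and Eomes called higher (0.0991 to 1.55 CPM, edgeR adjusted p = 0.000946), erythroid markers to 1.18 to 2.92 and 0.988 to 2.03, and fibroblast markers to 0.912 to 1.40 and 0.240 to 0.873. Low counts of some of these markers are uncertain. Other genes contain 66.3% of the stretches of 50 bases of Itgam, 72.3% of those of Hba-a1 and 89.3% of those of Hba-a2. For Hbb-bs and Hbb-bt the shares are 53.2% and 58.3%. Reads from such stretches may not have been assigned. The part of other cell types in the changes above was not tested.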

How the data were processed

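The table the authors deposited holds whole-number counts per gene symbol for 6 libraries, with differing totals and many genes at 0. The submitters' processing notes name STAR, featureCounts, DESeq2 and build mm10. Versions, annotation, strand and overlap settings are not given in the sources used here. Samples were grouped by title and columns matched by description. There were 0 columns without a sample.

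KO was compared with control by edgeR's quasi-likelihood test (edgeR 4.0.16, R 4.3.3) with TMM factors and filterByExpr, which kept 14268 genes with 99.9% of counts. P-values were adjusted over these genes (Benjamini-Hochberg), and 0.05 was the threshold. The biological coefficient of variation was 0.212. A standard error is the absolute log2 fold change over the square root of F. The script was tested on simulated data in which far fewer genes changed than were called here. That check does not cover changes as widespread as these. DESeq2 1.42.0 and 13 other settings were alternatives. Reads carry no stated molecular identifiers, so count limits cover counting error only.

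Members and lists were chosen with earlier results of these data known. Named genes are Rtf1, the 10 members, 27 pathway genes fixed by name, and up to 2 called genes per list and direction, by size of the change. Others are named as chosen after seeing their values. Some genes that this rule or the marker lists name are not reported here, though list counts include them.

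Both groups carry numbers 1 to 3. Deviations from group means correlated by 0.270, 0.130 and 0.379 between equal numbers. Each exceeded 0.1, so the numbers were read as pairs, a reading that comes from the data alone. The main test did not use these pairs, so its p-values and intervals are unpaired. Only the alternative with the replicate block took the numbers into the fit. Control replicate 2 correlated more with KO replicate 1 (0.204).

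Lengths and overlaps came from GENCODE M21 (GRCm38), where 98.2% of the symbols were found. Promoters are from RefSeq (GRCm38.p6).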

Additional observations from a re-analysis of the deposited data

How the results depend on the processing

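The 6 genes called higher (Ddx58, Ifih1, Tmem173, Zbp1, Adar and Tbk1) and Rtf1 kept their direction and call under all 14 alternatives. Members called higher numbered 7 with the replicate block, 8 without control replicate 3 and 7 with samples numbered 1 and 2 only. Dhx58 ran from −0.20 to 0.80 when 1 library was left out: it was called at 0.80 without control replicate 3 and reversed when control replicate 1 (−0.20), control replicate 2 (−0.18) or KO replicate 3 (−0.17) was dropped. Samhd1 ran from 0.099 to 0.63 in these fits and was called at 0.63 without control replicate 3, at 0.63 with samples numbered 1 and 2 only, and at 0.39 with the replicate block. Mavs turned to 0.027 with library size only. Among the pathway genes, Ikbke turned to −0.094 without control replicate 2, and Mlkl turned to 0.026 with library size only, 0.092 without control replicate 3, 0.060 without KO replicate 1 and 0.054 without KO replicate 2. With 1 library left out, Ikbke ran from −0.094 to 0.34 and Mlkl from −0.32 to 0.092. Over all genes, 2170 were called lower without KO replicate 2, against 3269, and fits without 1 library gave 2170 to 3700.

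Pathway genes called higher numbered 25 to 45 (35 as reported) and called lower 11 to 19 (16). By list, DNA sensors called higher fell from 6 to 3 without control replicate 1, KO replicate 2 or KO replicate 3. RNA sensor partners called lower fell from 3 to 1 in those fits, without control replicate 2 and with library size only. Nucleases called lower fell from 5 to 3 in these same fits. In the list of interferons, receptors and STATs, the 1 gene called lower was Jak2. Lower calls in that list fell to 0 without control replicate 1, KO replicate 2 or KO replicate 3. ZBP1 partners called higher rose from 3 to 6 with the replicate block and to 5 without control replicate 3 or with samples numbered 1 and 2 only. The replicate block changed no call of another member than Samhd1. Trex1 could not be fitted under any setting, as it has no counts. With 3 libraries a group, the interval of Dhx58 runs from a fold of 0.54 to 2.14.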
